A study of Mus musculus with 6 samples.

Results

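The segment described here is the stretch of mouse chromosome 8 from 99 up to 120 Mb (mm9 build), on the side of Prss54 with higher coordinates. Its members are all gene-detecting array probes whose deposited position starts in that interval, whatever their values. The interval itself was chosen with earlier results of these data known. They number 352 probes with 231 gene names, out of 41174 probes with 27376 gene names on the whole array. Of the gene names, 154 had 1 probe in the segment and 77 had several, and probes of a gene are repeated readings of it, not replicates. By strand, 195 probes lay on the plus strand and 157 on the minus strand. Testis RNA came from 3 wild-type mice (WT) and 3 mice lacking Prss54 (Prss54KO), with 1 single-colour Agilent array per mouse. All 6 were males of a mixed 129Sv and C57BL/6 background, 6 to 8 weeks old, so the controls share the mixed background and nothing in the labels pairs them by litter. Which part of Prss54 was disrupted, and in cells of which strain, is stated in none of the sources used.

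Genes on 1 chromosome travel together through breeding, and the more so the closer they lie. Around a gene altered in 1 strain and then bred with another, neighbouring stretches of the chromosome can stay of the strain of origin for many generations. Which strain's copy of the segment each mouse carried was not measured. The segment itself is gene-rich over most of its length and mixed in content. It holds cadherin genes for cell adhesion, a cluster of chemokine-like factor genes with testis-expressed members, a cluster of carboxylesterase genes, telomere proteins, RNA helicases and tRNA synthetases, and genes for membrane traffic.

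The probes below carry the values that the comparison turns on. Each is given 5′ to 3′ on its own strand as the deposited files hold it, with no part in capitals, because no base among them was altered or tested. The first pair reads Ap1g1, where Prss54KO mouse 3 lay apart from Prss54KO mice 1 and 2, the next pair reads adjoining transcripts on the minus strand that were both lower in Prss54KO, and the last pair reads Zfp612 and the Riken transcript with the smallest p of the segment. The exon, intron or untranslated region under each probe is not given, because no mm9 annotation was used here.
Ap1g1, chr8:112379480-112379539, plus strand: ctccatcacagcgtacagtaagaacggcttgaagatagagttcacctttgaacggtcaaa
Ap1g1, chr8:112376066-112376125, plus strand: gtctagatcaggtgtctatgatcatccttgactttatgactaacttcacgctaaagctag
ENSMUST00000079189, chr8:111774427-111774486, minus strand: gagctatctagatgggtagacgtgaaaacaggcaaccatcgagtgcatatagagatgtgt
ENSMUST00000067018, chr8:111772886-111772945, minus strand: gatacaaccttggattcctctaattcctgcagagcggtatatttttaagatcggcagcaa
Zfp612, chr8:112613985-112614044, plus strand: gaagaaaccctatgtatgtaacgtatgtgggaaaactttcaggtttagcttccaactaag
3010033K07Rik, chr8:111077214-111077273, minus strand: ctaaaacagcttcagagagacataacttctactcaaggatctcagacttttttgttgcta

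A level here is the log2 processed signal of a probe after subtraction of the 75th percentile of its array, so a level of 0 is that percentile, and a difference is Prss54KO minus WT on that log2 scale. Levels of different probes are not compared with each other. A probe was tested where 3 or more of the 6 arrays had it clearly over background, which 267 members with 179 gene names passed and 85 did not, and 247 were above background on all 6. Across the arrays, 66.2% to 74.8% of gene spots were above background, levels correlated between arrays at r of 0.9941 to 0.9964, and 0 spots were saturated. WT mice 1 and 2 were on slide 3, WT mouse 3 shared slide 2 with Prss54KO mice 1 and 2, and Prss54KO mouse 3 was on slide 1, each slide scanned separately. Spermatid genes, which mark the tissue, had a summed level of 9.94 or more in WT and 9.93 or more in Prss54KO. The Prss54 probe had levels of 3.77, 3.89 and 3.89 in WT mice and 2.10, 2.47 and 2.28 in Prss54KO mice, the smallest unadjusted p of the array (difference -1.57, SE 0.10, limma adjusted p 0.121). If that probe lies beyond the altered sequence, it is no check of the genotype labels. The array gives the testis as a whole, so fewer cells of a type and less RNA per cell cannot be told apart.

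No member passed limma's adjusted p of 0.05, and the lowest adjusted p among them was 0.999, while 0 of the 28913 probes tested on the array passed either. At an unadjusted p under 0.05 there were 25 members of 267 (9.36%), against 3.24% of all tested probes. They were 10 probes higher in Prss54KO with 9 gene names (array background 1.73%) and 15 lower with 12 gene names (array background 1.5%). With the arrays scaled to equal medians instead, the split was 6 higher and 16 lower. By the same count, the stretch from 70 up to 97 Mb, on the other side of Prss54, had 10 of 425 tested probes (2.35%). The stretch from 120 Mb on had 5 of 183 (2.73%), and the 2 Mb around Prss54 from 97 up to 99 Mb had 15 of 51 (29.4%). The stretches differed in spread within genotype, which enters the p. From 70 up to 97 Mb the median SD was 0.125 in WT and 0.108 in Prss54KO. In the segment it was 0.0853 and 0.0815. It was 0.101 and 0.0867 from 97 up to 99 Mb, and 0.0737 and 0.0817 from 120 Mb on. What part the larger spread had in the lower share from 70 up to 97 Mb was not tested. The genotypes did not overlap in 41 members (15.4%, against 7.77% of all tested probes), 21 of them higher (array background 4.2%) and 20 lower (array background 3.57%). No test of these shares was made, because neighbouring probes and probes of 1 gene are not independent.

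Most members differed little. The median difference was 0.00 over the members and 0.01 over all tested probes, with 138 members above 0 and 129 below. In 83.9% of members the difference was under 0.2 in size, against 89.6% of all tested probes, and the median size was 0.0618 against 0.0580. A size over 0.5 was reached by 12 members (4.49%, against 1.39% of all tested probes). That share was not particular to the segment. From 70 up to 97 Mb it was 18 of 425 (4.24%), with a median size of 0.0805, and from 97 up to 99 Mb it was 6 of 51 (11.8%). From 70 up to 97 Mb, however, WT mouse 3 lay over 0.5 from the mean of the other WT mice in 79 probes (18.6%). That compares with 4.87% in the segment and 5.14% over all tested probes. What part this had in the share from 70 up to 97 Mb was not tested. Within the segment, the excess over the array stood in a small group of probes and not in a shift of the whole segment.

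**Figure D1:**
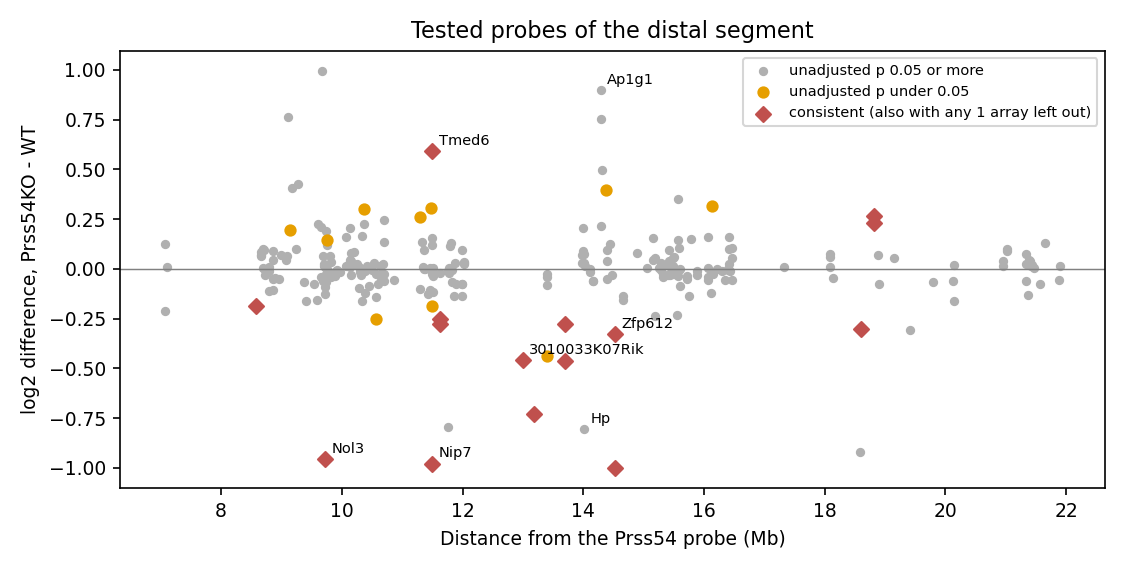
Difference between genotypes (Prss54KO minus WT, log2) of each of the 267 tested probes against its distance from the Prss54 probe in Mb, with probes at an unadjusted limma p under 0.05 in orange and those that also kept it with any 1 array left out as red diamonds. Most points lie within 0.2 of 0, and the red diamonds are 12 below and 3 above 0.

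Along the segment, probes at an unadjusted limma p under 0.05 lay in every stretch of 3 Mb with tested probes except the last. The 5 members from 99 up to 102 Mb, 3 of them probes of the neuronal cadherin gene Cdh8, were too dim to be tested, and no member started between 102 and 105 Mb. From 105 up to 108 Mb they were 4 of 61 tested probes (6.56%), and from 108 up to 111 Mb 9 of 83 (10.8%). From 111 up to 114 Mb they were 8 of 69 (11.6%), and from 114 up to 117 Mb 4 of 30 (13.3%). Over all tested probes the share was 3.24%. From 117 up to 120 Mb there were 0 of 24. From 111 up to 114 Mb 7 of the 8 were lower in Prss54KO. From 114 up to 117 Mb 3 of the 4 were higher, namely Ctrb1 and both tested probes of Vat1l. The probes at the edges hardly differed: Got2, the last tested probe before the segment, stood at -0.07 (SE 0.07), and Cdh11, the first inside it, at 0.13 (SE 0.19). At the far edge Cmip stood at 0.02 (SE 0.07) and Plcg2, just beyond, at -0.05 (SE 0.15).

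**Figure D2:**
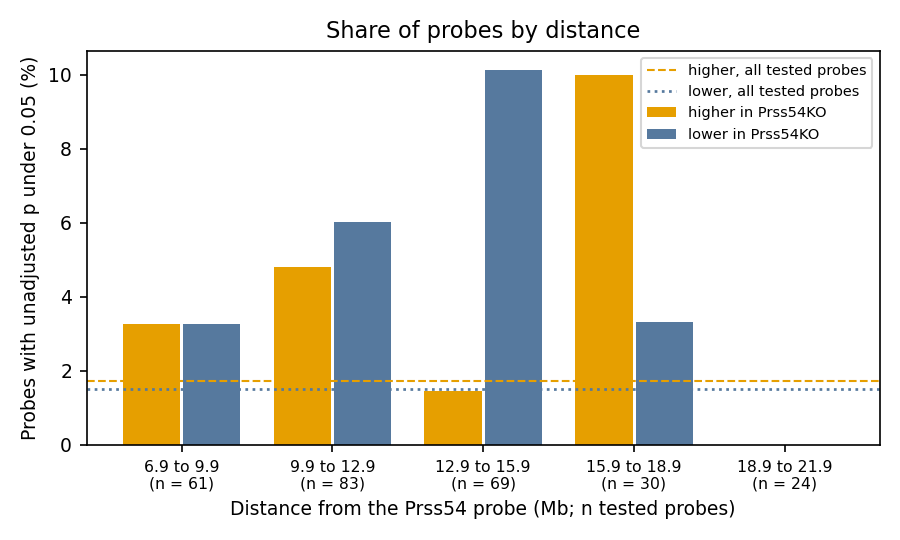
Share of tested probes with an unadjusted limma p under 0.05 in stretches of 3 Mb, by distance from the Prss54 probe, higher in Prss54KO in orange and lower in blue, with dashed and dotted lines for the shares over all tested probes (1.73% and 1.5%). The bar for lower probes is tallest in the stretch that holds 69 tested probes, and the last stretch, with 24, has none.

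A difference was called consistent where the genotypes did not overlap and the unadjusted p stayed under 0.05 in the full fit and in each of 6 fits that left out 1 array. That held for 15 members with 12 gene names (5.62%, against 0.792% of all tested probes), 3 higher (array background 0.36%) and 12 lower (array background 0.432%) in Prss54KO. None of them passed limma's adjusted threshold. Of the 15 probes, 4 were dim, with only 1 or 2 of the 3 Prss54KO arrays above background. Among the 247 members above background on all 6 arrays, a count added after the values were seen, 11 were consistent (4.45%, against 0.677% of such probes on the array), 3 higher and 8 lower. The other 10 members at an unadjusted p under 0.05 did not meet the rule.

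The smallest unadjusted p of the segment was that of 3010033K07Rik, a Riken cDNA transcript. Its levels were -1.83, -1.88 and -1.79 in WT mice and -2.34, -2.32 and -2.21 in Prss54KO mice. All Prss54KO mice lay well below all WT mice, and both genotypes were tight. The transcript was 1.37-fold lower (95% interval 1.24 to 1.52; difference -0.46, SE 0.06; unadjusted limma p 0.000223), and the difference ran from -0.50 to -0.43 with 1 array left out. On slide 2 alone it was -0.54.

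Zfp612, a zinc finger protein gene, was lower with both of its probes. The brighter one had levels of 1.49, 1.27 and 1.47 in WT mice and 1.05, 1.02 and 1.18 in Prss54KO mice. The genotypes did not overlap, and Prss54KO mouse 3 was the nearest to WT. It was 1.26-fold lower (95% interval 1.09 to 1.44; difference -0.33, SE 0.08; unadjusted limma p 0.00672). The dim probe, 112614553 to 112614612, differed by -1.0003 (SE 0.20) and was above background in 1 of 3 Prss54KO mice.

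Cyb5b, which encodes the cytochrome b5 of the outer mitochondrial membrane, was also lower with both of its probes. The probe at 109711251 had levels of 1.58, 1.57 and 1.45 in WT mice and 1.29, 1.26 and 1.28 in Prss54KO mice. The probe at 109707512 had levels of 0.04, 0.08 and -0.09 in WT mice and -0.32, -0.27 and -0.20 in Prss54KO mice. Both probes thus placed every Prss54KO mouse below every WT mouse. The differences were -0.25 (SE 0.06, unadjusted limma p 0.0046) and -0.28 (SE 0.07, unadjusted limma p 0.00652), that is, 1.19-fold and 1.21-fold lower. On slide 2 alone they shrank to -0.17 and -0.21.

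Vat1l, which encodes a protein resembling the synaptic vesicle protein VAT-1, was higher with both tested probes, while another of its probes was too dim to be tested. Its levels at 116896125 were -4.00, -3.99 and -4.15 in WT mice and -3.74, -3.74 and -3.86 in Prss54KO mice. At 116897771 they were -4.28, -4.33 and -4.26 in WT mice and -4.09, -4.06 and -4.02 in Prss54KO mice. The genotypes stood apart at both positions, although the gene is dim. The differences were 0.26 (SE 0.07, unadjusted limma p 0.00828) and 0.23 (SE 0.05, unadjusted limma p 0.00382). On slide 2 alone they were 0.41 and 0.19.

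Tmed6, a member of the p24 family that sorts cargo in the early secretory pathway, had the largest upward difference among the consistent probes. Its levels were 1.19, 1.20 and 0.81 in WT mice and 1.78, 1.82 and 1.38 in Prss54KO mice. WT mouse 3 and Prss54KO mouse 3 were the low ones of their genotypes, yet the groups did not overlap. The gene was 1.51-fold higher (95% interval 1.15 to 1.98; difference 0.59, SE 0.16; unadjusted limma p 0.00979). With 1 array left out the difference ran from 0.46 to 0.73, and on slide 2 alone it was 0.99.

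The transcripts named ENSMUST00000079189 and ENSMUST00000067018 have probes within 2 kb of each other on the minus strand, and no RefSeq entry was matched to either. The former had levels of -0.31, -0.32 and -0.43 in WT mice and -0.87, -1.04 and -0.55 in Prss54KO mice. The latter had levels of -1.73, -1.76 and -1.92 in WT mice and -2.03, -2.20 and -2.01 in Prss54KO mice. Both showed Prss54KO mouse 2 lowest and Prss54KO mouse 3 nearest to WT. The differences were -0.46 (SE 0.13) and -0.28 (SE 0.08), and on slide 2 alone -0.52 and -0.20.

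**Figure D3:**
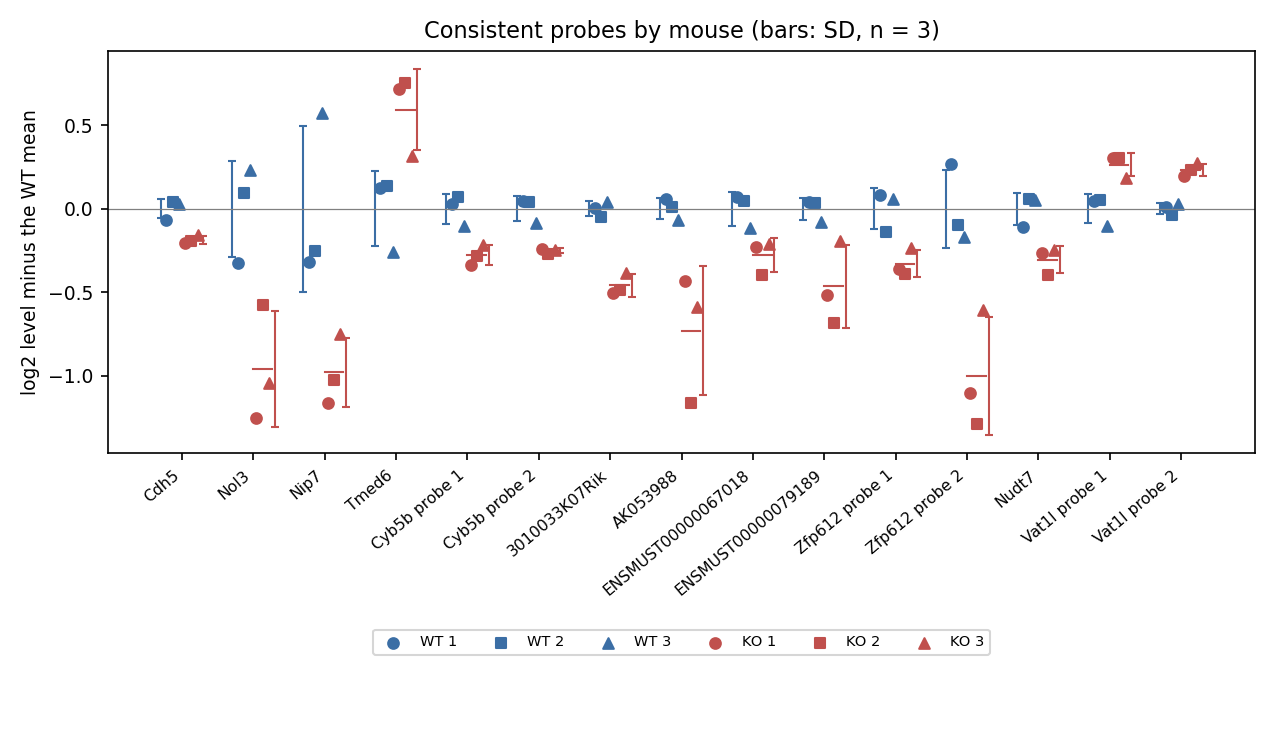
Level of each mouse minus the WT mean (log2) for the 15 consistent probes in order of position, WT mice in blue and Prss54KO mice in red, with bars for the SD of 3 mice and a short line for the Prss54KO mean. The genotypes do not overlap at any of them, and the wide bars include those of the dim probes of Nol3, Nip7, AK053988 and Zfp612.

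The other consistent probes were those of Nudt7, Cdh5, Nol3, Nip7 and AK053988, all lower in Prss54KO. Nudt7, a peroxisomal coenzyme A diphosphatase, had levels of -2.01, -1.83 and -1.85 in WT mice and -2.16, -2.29 and -2.14 in Prss54KO mice. Its difference was -0.30 (SE 0.07), while its other, more variable probe differed by -0.92 (SE 0.48) without passing. Cdh5, the cadherin of endothelial junctions, had levels of -2.61, -2.51 and -2.52 in WT mice and -2.76, -2.74 and -2.71 in Prss54KO mice. Its difference of -0.19 (SE 0.05) stood beside 4 of 5 tested endothelial markers below 0 (Cdh5 is 1 of them), with a median of -0.16. The summed level of those markers was 0.94 to 1.06 in WT and 0.73 to 1.05 in Prss54KO, and their part in the result was not tested.

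Nol3, which encodes an inhibitor of apoptosis, had levels of -5.07, -4.66 and -4.52 in WT mice and -6.00, -5.33 and -5.79 in Prss54KO mice. Only 1 of 3 Prss54KO mice was above background there, and the difference was -0.96 (SE 0.21). Nip7, a factor in the assembly of the large ribosomal subunit, had a difference of -0.98 (SE 0.26) at its dim probe, where 1 of 3 Prss54KO mice was above background, and of -1.66 there on slide 2 alone. Its bright probe at 109582751 had levels of 1.96, 2.03 and 1.91 in WT mice and 1.74, 1.81 and 1.79 in Prss54KO mice. That is a smaller difference of -0.19 (SE 0.06, unadjusted limma p 0.0159), with no overlap, which lost an unadjusted p under 0.05 in 2 of the 6 fits without 1 array. AK053988, a cDNA with no RefSeq match here, differed by -0.73 (SE 0.19) and was above background in 2 of 3 Prss54KO mice.

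Probes of a gene did not always move together. Of 59 gene names with at least 2 tested probes, 34 had all probes on the same side of 0 (57.6%, against 52.3% of 6645 such gene names on the whole array). In 4 of them (Nip7, Cyb5b, Zfp612 and Vat1l) the genotypes did not overlap at 2 or more probes (6.78%, against 1.82% on the array). Zfhx3, a homeobox and zinc finger transcription factor gene, stood below 0 at all 4 probes, but only 1 of them had an unadjusted limma p under 0.05. That probe had levels of -2.20, -2.29 and -2.37 in WT mice and -2.79, -2.95 and -2.44 in Prss54KO mice, a difference of -0.44 (SE 0.13, unadjusted limma p 0.0169). Its other probes, all within 3 kb, stood at -0.03, -0.04 and -0.08. The Akt phosphatase gene Phlpp2 had 1 probe at 0.40 (SE 0.16) and another at 0.04 (SE 0.07).

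At Ap1g1, Prss54KO mouse 3 lay apart from Prss54KO mice 1 and 2. The gene encodes the gamma-1 subunit of AP-1, the clathrin adaptor of the trans-Golgi network and endosomes, and has 4 probes on the plus strand. At 112379480 the processed signal was 201.8, 202.3 and 234.2 in WT mice and 549.1, 555.5 and 216.5 in Prss54KO mice. At 112384514 it was 1228.6, 1191.2 and 1317.9 in WT mice and 2993.8, 2694.3 and 1225.9 in Prss54KO mice. At 112387789 it was 2746.5, 2605.7 and 2936.8 in WT mice and 5127.6, 4367.3 and 2816.2 in Prss54KO mice. At all 3 probes Prss54KO mice 1 and 2 were far above the WT range and Prss54KO mouse 3 lay within it, as processed signal.

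Relative to the WT mean level, these probes stood at 1.34, 1.24 and 0.86 in Prss54KO mouse 1, and at 1.37, 1.10 and 0.65 in Prss54KO mouse 2. In Prss54KO mouse 3 they stood at -0.01, -0.07 and -0.01. The fourth probe, 112376066, showed the same order with smaller steps, 0.50, 0.18 and -0.04. The genotype differences of 0.90 (SE 0.37), 0.76 (SE 0.34), 0.50 (SE 0.22) and 0.22 (SE 0.14) did not reach an unadjusted p of 0.05 with limma (0.0512, 0.0642, 0.0613 and 0.175). WT mouse 3 shares slide 2 with Prss54KO mice 1 and 2 and lay with the other WT mice. On slide 2 alone, which leaves out Prss54KO mouse 3, the differences were 1.28, 1.15, 0.73 and 0.25. Prss54KO mouse 3 is alone on slide 1, so for it mouse and slide cannot be told apart.

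**Figure D4:**
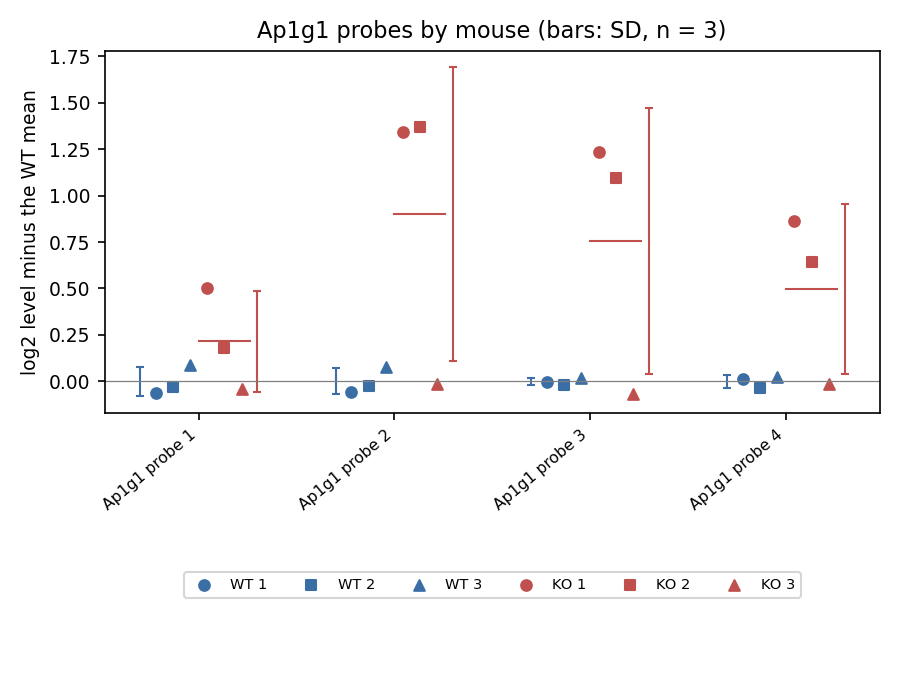
Level of each mouse minus the WT mean (log2) for the 4 Ap1g1 probes in order of position, WT mice in blue and Prss54KO mice in red, with bars for the SD of 3 mice. Prss54KO mice 1 and 2 stand above every WT mouse at each probe, while Prss54KO mouse 3 stays between -0.07 and -0.01 of the WT mean.

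The same split was counted over the array with limits chosen after these values were seen: Prss54KO mice 1 and 2 both over 0.5 from the WT mean in 1 direction, Prss54KO mouse 3 within 0.2 of it, and a WT SD under 0.2. It held for 24 of all tested probes (0.083%), and 5 of those were members: the 3 Ap1g1 probes, ENSMUST00000079189 and the 1 Zfhx3 probe. Because the limits were chosen with these values in view, the counts here describe the split and are no test of it. The 3 Ap1g1 probes are repeated readings of 1 gene. These 5 lie between 111482272 and 112387848. Outside the segment, chromosome 8 also held Tepp at 97844812 (difference 0.42), in the stretch around Prss54, and Sgcz at 38586407 (difference 0.70). With Prss54KO mouse 1 in the place of mouse 3 the pattern held for 11 probes of the array and 0 members, and with Prss54KO mouse 2 for 6 and 0. Among the 25 members at an unadjusted p under 0.05, Prss54KO mouse 3 was the nearest to the WT mean of the 3 in 17 (68%), mouse 1 in 5 and mouse 2 in 3. Outside the segment it was the nearest in 273 of 911 such probes (29.97%). The 25 members have 21 gene names and neighbouring probes are not independent, so these shares were not tested. Mouse and slide cannot be told apart for Prss54KO mouse 3 here either. Over all tested probes, whatever their p, mouse 3 was the nearest in 91 of 267 members (34.08%) and in 30.5% of the probes outside the segment.

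Within each genotype the median spread of the segment lay below that of the array. The median SD over 3 mice was 0.0853 in WT and 0.0815 in Prss54KO, against 0.0897 and 0.0992 over all tested probes. An SD over 0.5 occurred in 9 members in WT (3.37%, against 2.3% of all tested probes) and in 4 in Prss54KO (1.5%, against 2.48%). Among probes above background on all 6 arrays, the share was 1.21% of members against 0.981% outside the segment in WT, and 1.21% against 1.04% in Prss54KO. The median deviation of a mouse from the mean of the other mice of its genotype was lowest in WT mouse 1 (0.0774). It was highest in WT mouse 3 (0.101) and Prss54KO mouse 3 (0.0953). Over all tested probes these 3 mice stood at 0.0818, 0.101 and 0.103, so WT mouse 1 was lowest there too, but Prss54KO mouse 3 was highest. Prss54KO mouse 1 stood at 0.0803 in the segment and at 0.102 over all tested probes. The largest SDs were those of Nudt7 at 116660355 (0.91 in WT), the acute-phase gene Hp, which encodes haptoglobin (0.87 in WT), and NAP050610-1 (0.85 in Prss54KO). Of the 4 Prss54KO members with an SD over 0.5, 2 were Ap1g1 probes, whose SDs were 0.79 and 0.71 in Prss54KO but 0.07 and 0.02 in WT.

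**Figure D5:**
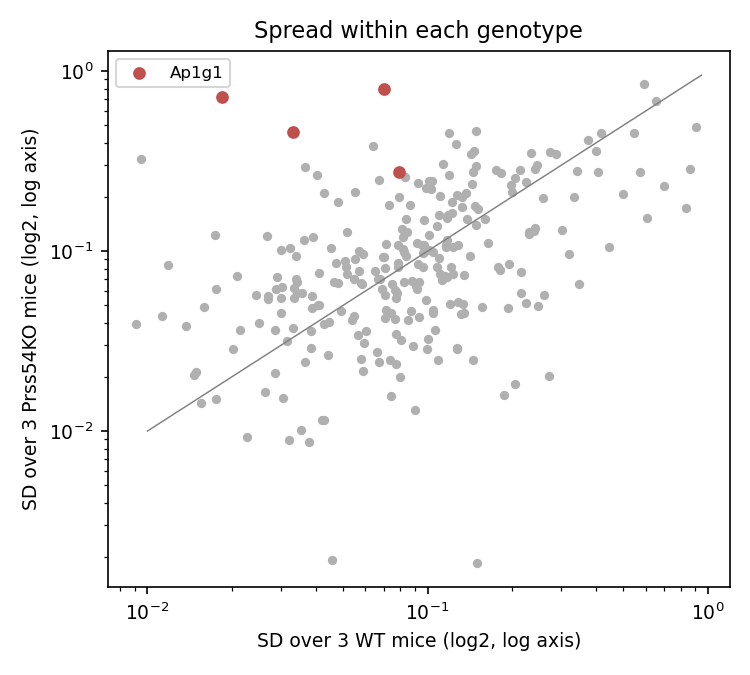
SD over 3 Prss54KO mice against SD over 3 WT mice for each of the 267 tested probes, both on log axes in log2 units, with the Ap1g1 probes in red and a line of equal SD. The Ap1g1 probes lie above the line, at 0.27 to 0.79 in Prss54KO and 0.02 to 0.08 in WT.

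Hp shows how 1 mouse sets such a spread. Its levels were -4.86, -5.03 and -3.45 in WT mice and -5.04, -5.57 and -5.14 in Prss54KO mice. Only WT mouse 3 stood high, WT mouse 2 and Prss54KO mouse 1 nearly met, and the difference of -0.80 (SE 0.43) did not pass. NAP050610-1, an unmatched sequence, had levels of -4.77, -5.86 and -4.92 in WT mice and -3.21, -4.75 and -4.59 in Prss54KO mice, and here Prss54KO mouse 1 stood out.

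Among the remaining members at an unadjusted p under 0.05 that were higher in Prss54KO were genes of digestive proteases and of membrane remodelling. Ctrb1, which encodes the pancreatic digestive enzyme precursor chymotrypsinogen B, had levels of -2.22, -2.23 and -1.89 in WT mice and -1.85, -1.84 and -1.70 in Prss54KO mice (difference 0.32, SE 0.11). Vps4a, the ATPase that disassembles ESCRT complexes, had levels of -0.05, -0.18 and 0.22 in WT mice and 0.30, 0.32 and 0.28 in Prss54KO mice (difference 0.30, SE 0.11). Ctrl, a chymotrypsin-like protease gene, differed by 0.30 (SE 0.11), with overlap. In all 3 genes WT mouse 3 lay next to the Prss54KO mice, and on slide 2, which it shares with Prss54KO mice 1 and 2, the differences were 0.04, 0.09 and 0.03.

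The others were small or dim. The leucine-rich repeat gene Lrrc29 differed by 0.14 (SE 0.05), the unnamed transcript TC1650620 by 0.26 (SE 0.09) and BQ563014 by 0.19 (SE 0.07). Esrp2, a regulator of epithelial splicing, differed by -0.25 (SE 0.10) at 1 probe and stood at -0.14 (SE 0.08) at the other.

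Grouped by the role of the genes, 12 lists chosen with earlier results known hold most of the named members. Their median differences ran from -0.09 in the cadherins to 0.06 in membrane traffic, against 0.01 over all tested probes. The called probes below are those at an unadjusted limma p under 0.05, which over all tested probes were 1.73% higher and 1.5% lower. In germ cell and cilium genes, 20 probes of 14 genes were tested and 1 of them, Lrrc29, was called, in the higher direction. Their median difference was 0.02. Pmfbp1, a protein of the sperm head-tail junction, had levels of 5.64, 5.72 and 5.74 in WT mice and 5.88, 5.91 and 5.53 in Prss54KO mice, overlapping, with a difference of 0.07 (SE 0.11). Hydin, a protein of the central pair of motile cilia, stood at 0.01 (SE 0.05), and Ccdc79, which attaches meiotic telomeres to the nuclear envelope, at -0.05 (SE 0.06). The dynein light chain gene Dynlrb2 stood at 0.01 and 0.04, and the 4 probes of the dynein light intermediate chain gene Dync1li2 between -0.11 and 0.09.

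The chemokine-like factor family had a median of -0.01, and 0 of its 8 probes (5 genes) were called by the same threshold. Cmtm2a had levels of 5.93, 5.99 and 5.81 in WT mice and 5.86, 5.91 and 5.86 in Prss54KO mice, a difference of -0.03 (SE 0.06). Cklf stood at 0.10 (SE 0.06) at 1 probe, with no overlap and without passing, and at 0.10 at its other probe, with overlap. Cmtm2b stood at -0.02 and Cmtm4 at -0.11 and 0.01. Of the 6 cadherin genes 2 could be tested: Cdh5, described above, and Cdh11, a mesenchymal cadherin, at 0.13, -0.21 and 0.01. Their 4 tested probes had a median of -0.09, and 1 of them, that of Cdh5, was called, lower. The carboxylesterases, which hydrolyse esters and drugs, had 0 of 6 probes and a median of -0.07, with Ces2a at 0.40 (SE 0.17), Ces2b at 0.43 (SE 0.30) and Ces4a at -0.15 (SE 0.09). For Ces2a and Ces2b the slide 2 differences were 0.04 and -0.34.

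Genes of telomeres, centromeres and chromatin had 0 of 18 probes (10 genes) called and a median of 0.03. The telomere-binding genes Terf2 and Terf2ip had probes between -0.11 and 0.01 and between -0.05 and 0.11, and the insulator protein gene Ctcf stood at 0.02 (SE 0.06). Transcription factors had 1 of 21 probes, Zfhx3, and a median of -0.03, with E2f4 at 0.19 (SE 0.12), the osmotic stress factor gene Nfat5 between -0.06 and 0.13 over 6 probes and Zfp1 at -0.12 (SE 0.08). RNA processing and translation genes had 3 of 32 probes, all lower (Nip7 at both probes and Esrp2 at 1), and a median of 0.01. Among these, Nob1, a nuclease of small ribosomal subunit maturation, stood at -0.14 (SE 0.07) with no overlap and Ftsjd1, an mRNA cap methyltransferase, at -0.16 and -0.14.

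Membrane traffic and lysosome genes had 2 of 19 probes (12 genes) called, Tmed6 and Vps4a, both higher, and a median of 0.06. The list holds the 4 Ap1g1 probes. Cog8, a subunit of the Golgi tethering complex COG, stood at 0.12 (SE 0.06) with no overlap. Metabolic enzymes had 3 of 24 probes, all lower (Cyb5b at both probes and Nudt7), and a median of -0.01, with Ldhd at 0.16 (SE 0.07) and the sphingomyelinase gene Smpd3 between -0.06 and 0.25 over 3 probes. Signalling and cell death genes had 1 of 11 probes higher (Phlpp2), 1 lower (Nol3) and a median of 0.02, with the cytokine gene Il34 at 0.05 (SE 0.06) and Elmo3 at -0.07 and -0.00. Proteasome and ubiquitin genes had 0 of 12 probes and a median of 0.00, with Nae1 at -0.05, Wwp2 between -0.14 and 0.09 over 5 probes and Psmd7 between 0.03 and 0.04 over 3. Solute carriers had 0 of 3 probes and a median of -0.04, with Slc12a4 at -0.12 and Slc7a6 at -0.04 and 0.01.

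Of the fibroblast and matrix markers, 6 of 6 stood below 0 with a median of -0.54, 2 of them (Col1a1 and Col3a1) at an unadjusted limma p under 0.05. Their summed level overlapped between genotypes, with 4.796 to 5.16 in WT and 4.31 to 4.84 in Prss54KO. Red blood cell markers had 3 of 3 below 0 with a median of -0.57, and a summed level of 2.50 to 3.51 in WT and 2.31 to 2.80 in Prss54KO. Macrophage markers had 4 of 4 tested below 0 with a median of -0.06. Of 4 epididymis markers 2 could be tested, both above 0 with a median of 0.36, and 1 of them (Defb41) had an unadjusted limma p under 0.05. Their summed level was -2.07 to -1.90 in WT and -1.78 to -1.64 in Prss54KO, without overlap. None of these marker genes is a member of the segment. Their part in the members' differences was not tested.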

How the data were processed

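Per the labels, testis RNA of 3 WT and 3 Prss54KO mice was labelled with Cy3 and hybridised to 1 array per mouse. In the deposited scanner files, spot brightness is given as intensity, processed by Agilent Feature Extraction 10.7.3.1 per the file headers (10.7 per the submitters' processing notes), with mm9 probe positions. The authors' deposited series table holds log2 values with equal medians and served as an alternative.

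Spots of a probe were averaged, outlier spots left out, and log2 levels centred on each array's 75th percentile. All 28913 probes above background on at least 3 arrays were fitted with limma 3.58.1 in R 4.3.3 (two-sided, Benjamini-Hochberg over all, threshold 0.05). The method was tested on simulated data. Members, lists and naming rules were chosen with earlier results of these data known. Named were probes with the smallest p in each direction, consistent probes, genes with several probes apart, up to 4 genes per list, the brightest, the most variable and those at the edges; Hydin, Ctcf, Dynlrb2, Ccdc79 and other probes of named genes were added after their values were seen. RefSeq (GRCm38.p6) matched 241 members by accession and 53 by symbol, and 58 had no match. The labels name separate mice, whose number limits the precision.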

Additional observations from a re-analysis of the deposited data

How the results depend on the processing

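The count of members at an unadjusted p under 0.05 was 25. It was 18 to 34 in the settings with all arrays. The lowest was 18 of 179 (10.06%, against 3.34% of all tested probes) with only the brightest probe per gene name. The highest was 34 of 267 (12.73%, against 5.24%) with array weights. With the slide as a fixed block it was 19 (7.12%, against 4.36%). Slides 1 and 3 each hold 1 genotype, so the differences under that block come from slide 2 alone, which has 1 WT mouse. Leaving out 1 array gave 19 (Prss54KO replicate 2 omitted, 7.12% against 2.99%) to 32 (WT replicate 3 omitted, 11.99% against 6.16%). Without Prss54KO replicate 1 it was 20 (7.49%, against 4.42%). No member passed limma's adjusted threshold in any setting. Prss54, outside the segment, passed it in 3 settings, with a limma adjusted p of 0.00459 under normexp background correction. The same probes were not always called. Of the 25, 12 also had an unadjusted limma p under 0.05 with the slide as a fixed block, 18 with normexp background correction and 24 with array weights. The share of higher probes among the called ones was 40% here, 33.3% with quantile normalization or the authors' deposited table, 27.3% with median scaling, 48.3% with no filter on dim probes (14 of 29), 52.2% with only probes above background on all 6 arrays (12 of 23) and 55.9% with array weights (19 of 34). The correlations of deviations between mice of the same replicate number were -0.04, 0.02 and -0.15 for numbers 1, 2 and 3. They cannot decide whether the numbers pair the mice, because no other pairing was computed and the numbers are mixed with the slides. The replicate block gave a count of 26.

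The direction of some named probes, all without a call, changed. With the slide as a fixed block and on slide 2 alone, the values were -0.0633 for E2f4, 0.0313 for Dync1li2, -0.338 for Ces2b, 0.0661 for Terf2, 0.0213 for Elmo3, 0.0507 for Cdh11, 0.0554 for Slc7a6, 0.0763 and 0.0241 for Cmtm2a and -0.0271 for Cmip. Cmip was -0.00324 with median scaling and -0.00935 with normexp correction, which also gave Cmtm2b 0.0343. With 1 array left out, the ranges were -0.0179 to 0.0697 for Cmip, -0.465 to 0.0282 and -0.0469 to 0.312 for the Cdh11 probes, -0.0809 to 0.0455 for Slc7a6, and -0.0771 to 0.0101 and -0.0162 to 0.0059 for Cmtm2a. They were -0.172 to 0.0135 for Cmtm4, -0.171 to 0.0322 for Ces3b and -0.0482 to 0.00674 for Cmtm2b. The cause was not tested. Signal over background limits Nol3, the dim probes of Nip7 and Zfp612, and AK053988.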
